A study of Mus musculus with 20 samples.

Results

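Peaks of 5-formylcytosine (5fC) were examined over 7 genes that encode adhesion molecules of the neurexin and contactin systems, out of 37273 genes annotated on the assembled chromosomes. The genes were *Nrxn2*, *Nrxn3*, *Nlgn1*, *Nlgn2*, *Cntnap2*, *Cntn1* and *Cntn2*. They were chosen by name and family, and each was read as its whole annotated gene body in the NCBIM37 (mm9) assembly. Peaks of 5fC mark DNA and not RNA, so they carry no measure of how strongly any of these genes was transcribed, and the tissue labels could not be checked against marker transcripts.

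The study isolated hindbrain, heart, liver and carcass (the remaining body) from mouse embryos at E11.5, either wild type (WT) or *Tdg* null. In the *Tdg* null line a neomycin cassette replaces coding sequence for the catalytic domain of thymine DNA glycosylase, and both genotypes came from crosses between heterozygous parents. There were 20 pull-down libraries from 12 embryos of 6 litters: hindbrain was taken from 4 litters (labelled A, O, Q and Z, with 1 embryo of either genotype in each), and heart, liver and carcass from 1 WT and 1 *Tdg* null embryo in each of 2 further litters, here called e and f. The 3 tissues of litters e and f came from the same embryos, hindbrain shared no litter with them, and tissue and litter therefore cannot be told apart where hindbrain is set against another tissue. A difference between tissues in the mixture of cell types likewise cannot be told apart from a difference within cells.

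Cytosine methylation is removed in part by TET enzymes, which oxidise 5-methylcytosine in steps to 5-hydroxymethylcytosine, 5fC and 5-carboxylcytosine. TDG excises the last pair, and base excision repair then restores an unmodified cytosine, so 5fC is usually scarce and accumulates where the glycosylase is missing. Neurexins are presynaptic receptors with several promoters and extensive alternative splicing, and neuroligins are their postsynaptic ligands. *Nlgn1* and *Nlgn2* encode neuroligins known chiefly from excitatory and inhibitory synapses, respectively. Contactins are immunoglobulin superfamily proteins held in the axonal membrane by a lipid anchor. Contactin 1 acts in axon and myelin junctions, contactin 2 (TAG-1) guides early axons and later sits beside the node of Ranvier, and *Cntnap2* encodes CASPR2, a neurexin-like transmembrane partner of contactin 2.

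The genes differ widely in size and base composition. *Cntnap2* (ENSMUSG00000039419.10) spans chromosome 6, 45010060 to 47251368, on the + strand, which is 2241 kb with 4.43 CpG per kb. *Nrxn3* (ENSMUSG00000066392.4) spans chromosome 12, 89961320 to 91573375, on the + strand, 1612 kb with 5.39 CpG per kb. *Nlgn1* (ENSMUSG00000063887.6) lies on chromosome 3, 25330733 to 26032656, on the − strand, 702 kb with 5.30 CpG per kb. These 3 genes are long and poor in CpG. *Cntn1* (ENSMUSG00000055022.8) lies on chromosome 15, 91881596 to 92172398, on the + strand, 291 kb with 7.75 CpG per kb. *Nrxn2* (ENSMUSG00000033768.9) lies on chromosome 19, 6418731 to 6544169, on the + strand, 125 kb with 18.5 CpG per kb, and overlaps the smaller genes *Slc22a12*, *Gm14964* and *Gm14967*. *Cntn2* (ENSMUSG00000053024.7) lies on chromosome 1, 134406002 to 134439517, on the − strand, 33.5 kb with 14.9 CpG per kb. *Nlgn2* (ENSMUSG00000051790.8) lies on chromosome 11, 69636624 to 69651286, on the − strand, 14.7 kb with 25 CpG per kb, the shortest and the richest in CpG of the 7.

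Across the series the *Tdg* null hindbrain libraries held 104110 to 132406 peaks, which covered 2.68 to 3.67% of the ungapped genome, and the WT hindbrain libraries 1563 to 21606 peaks, or 0.0349 to 0.469%. In the other *Tdg* null libraries that were kept, 3.03 to 8.09% of the genome was covered, and in the other WT libraries 0.0378 to 0.939%. A second *Tdg* null liver, from litter f, had only 228 peaks. It was excluded by the study for poor quality, had no peak in any of the 7 genes and stands apart from every value below. The files list peak positions alone, without heights or reads, so sequencing depth is unknown and a gene listed at 0 has no limit of detection attached. Peaks on DNA do not check the deletion either: the gene body of *Tdg* itself held 0 to 4 peaks in the *Tdg* null libraries and 0 to 1 in the WT libraries.

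Sequence under the peaks that recurred most widely is given first, because it was covered in every *Tdg* null library kept, although such stretches are a small part of all sequence under peaks. Of the stretches under a peak in all 9 *Tdg* null libraries kept, the longest in each gene that had one are shown, as 200 bases from the middle of the stretch, 5′ to 3′ on the strand of the gene, from NCBIM37. In *Nrxn3* the stretch chr12:90412701-90413100 was equally long, at 400 bp, and the one nearer the 5′ end is shown. Capitals mark CpG dinucleotides, the usual substrate of TET enzymes.
Nrxn2, chr19:6474850-6475049 (+ strand): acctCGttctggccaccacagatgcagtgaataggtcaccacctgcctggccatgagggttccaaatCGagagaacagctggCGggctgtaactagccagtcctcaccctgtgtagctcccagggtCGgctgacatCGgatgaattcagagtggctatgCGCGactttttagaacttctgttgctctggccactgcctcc
Nrxn3, chr12:90039300-90039499 (+ strand): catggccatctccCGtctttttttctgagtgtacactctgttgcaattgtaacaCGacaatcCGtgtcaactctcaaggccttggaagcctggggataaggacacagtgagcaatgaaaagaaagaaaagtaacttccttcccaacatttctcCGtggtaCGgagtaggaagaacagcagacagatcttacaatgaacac
Nlgn2, chr11:69647500-69647699 (− strand): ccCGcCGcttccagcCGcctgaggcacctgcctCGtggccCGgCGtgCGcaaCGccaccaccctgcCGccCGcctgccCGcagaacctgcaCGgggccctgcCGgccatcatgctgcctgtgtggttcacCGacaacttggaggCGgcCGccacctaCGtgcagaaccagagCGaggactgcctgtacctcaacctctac
Cntn1, chr15:92097250-92097449 (+ strand): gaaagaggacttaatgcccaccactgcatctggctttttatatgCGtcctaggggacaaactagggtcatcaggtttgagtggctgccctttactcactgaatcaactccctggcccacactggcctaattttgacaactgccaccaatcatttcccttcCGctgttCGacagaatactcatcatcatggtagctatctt

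The *Nlgn2* sequence is protein-coding throughout. The other 3 lie in introns. A further set differs between tissues, again with the longest stretch of each gene that had one: the first 5 were covered in all 4 *Tdg* null hindbrains and in none of the other 5 *Tdg* null libraries, and the last in those 5 and in no *Tdg* null hindbrain. All 6 are intronic, and the *Nrxn2* stretch is 100 bases long and shown whole. The *Nrxn2* and *Nlgn1* sequences are only the ends of longer stretches shared by the hindbrains (800 and 600 bp), of which 2 other *Tdg* null libraries covered another part, whereas the others are whole sites or the middle of one. The *Nlgn1* sequence is mostly repeated elsewhere in the genome, with a median of 3277 copies of its windows of 24 bases and 35% of them single-copy.
Nrxn2, chr19:6453301-6453400 (+ strand): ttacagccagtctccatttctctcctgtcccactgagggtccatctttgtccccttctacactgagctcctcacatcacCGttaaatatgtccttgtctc
Nrxn3, covered in hindbrain, chr12:90287800-90287999 (+ strand): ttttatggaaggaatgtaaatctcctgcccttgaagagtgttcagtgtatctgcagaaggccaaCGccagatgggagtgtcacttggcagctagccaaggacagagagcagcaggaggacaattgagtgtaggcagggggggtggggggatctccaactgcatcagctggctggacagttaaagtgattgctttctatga
Cntn1, chr15:91970550-91970749 (+ strand): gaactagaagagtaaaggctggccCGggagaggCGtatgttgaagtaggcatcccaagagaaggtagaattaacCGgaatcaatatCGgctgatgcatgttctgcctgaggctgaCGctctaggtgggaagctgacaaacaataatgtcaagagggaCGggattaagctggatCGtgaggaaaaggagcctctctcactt
Nlgn1, chr3:25544601-25544800 (− strand): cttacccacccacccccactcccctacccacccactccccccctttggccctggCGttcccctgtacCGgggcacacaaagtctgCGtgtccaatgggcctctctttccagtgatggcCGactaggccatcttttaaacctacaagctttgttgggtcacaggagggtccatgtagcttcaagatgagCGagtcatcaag
Cntnap2, chr6:46879850-46880049 (+ strand): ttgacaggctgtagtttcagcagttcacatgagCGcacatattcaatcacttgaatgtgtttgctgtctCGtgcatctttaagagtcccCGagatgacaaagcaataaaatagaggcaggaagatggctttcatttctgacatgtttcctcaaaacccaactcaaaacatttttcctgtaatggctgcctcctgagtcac
Nrxn3, not covered in hindbrain, chr12:91472950-91473149 (+ strand): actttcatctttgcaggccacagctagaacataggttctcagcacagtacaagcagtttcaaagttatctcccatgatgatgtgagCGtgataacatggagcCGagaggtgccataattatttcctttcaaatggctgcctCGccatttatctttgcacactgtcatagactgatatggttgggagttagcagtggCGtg

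*Neurexins.* In hindbrain, *Nrxn2* carried 5fC peaks in every *Tdg* null library and in only 2 of 4 WT libraries. The percentage of its gene body under peaks was 12.1, 7.10, 10.7 and 8.61 in the *Tdg* null embryos, with litters always in the order A, O, Q, Z for hindbrain and e, f for other tissues, and 0, 0.877, 0.558 and 0 in their WT littermates. The lowest *Tdg* null value lay well above the highest WT value. By limma, on log2(percentage + 0.1), the difference was 5.07 ± 0.82 (SE, n = 4 and 4), adjusted p = 0.000753. As in each comparison with WT here, this log2 difference depends on the added 0.1 wherever WT libraries were listed at 0, and no fold change is given against such groups.

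*Nrxn2* was also densely covered in *Tdg* null carcass, at 12.8 and 15.4% in litters e and f, where WT carcass had 0.478 and 0%. The carcass difference was 5.87 ± 1.10 (SE, n = 2 and 2), adjusted p = 0.0282, but with litter as a block the adjusted p was 0.0650. In heart the 2 *Tdg* null libraries were far apart, at 10.02% in litter e and 1.12% in litter f, and both WT libraries were at 0. The heart difference was 5.13 ± 1.25 (SE, n = 2 and 2), adjusted p = 0.0342. The *Tdg* null liver of litter e had 4.78% of *Nrxn2* under peaks, against 0 in both WT livers, with 1 *Tdg* null library and hence no test.

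*Nrxn3*, the second largest of these genes, held more peaks than any other: 76 to 113 in *Tdg* null hindbrain, and, in the other *Tdg* null libraries, 142 and 178 for carcass, 67 and 32 for heart and 39 for liver. Per length its coverage was moderate. It was 2.57, 2.36, 2.74 and 3.83% in the *Tdg* null hindbrains, and in WT hindbrain it was 0.254% in litter Q and 0 in the other 3 litters. The hindbrain genotypes did not overlap, and differed by 4.41 ± 0.45 (SE, n = 4 and 4) on the log2 scale, adjusted p = 4.56e-05. In carcass the gene was covered by 5.15 and 7.03% in *Tdg* null and by 0.346 and 0.267% in WT libraries, a difference of 3.92 ± 0.25 (SE, n = 2 and 2), adjusted p = 0.00327. In heart it was covered by 2.48 and 0.850% against 0.0620 and 0.0558%, a difference of 3.30 ± 0.65 (SE, n = 2 and 2), adjusted p = 0.0202. The *Tdg* null liver had 1.25%, and the WT livers of litters e and f had 0.0248 and 0%.

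**Figure D1:**
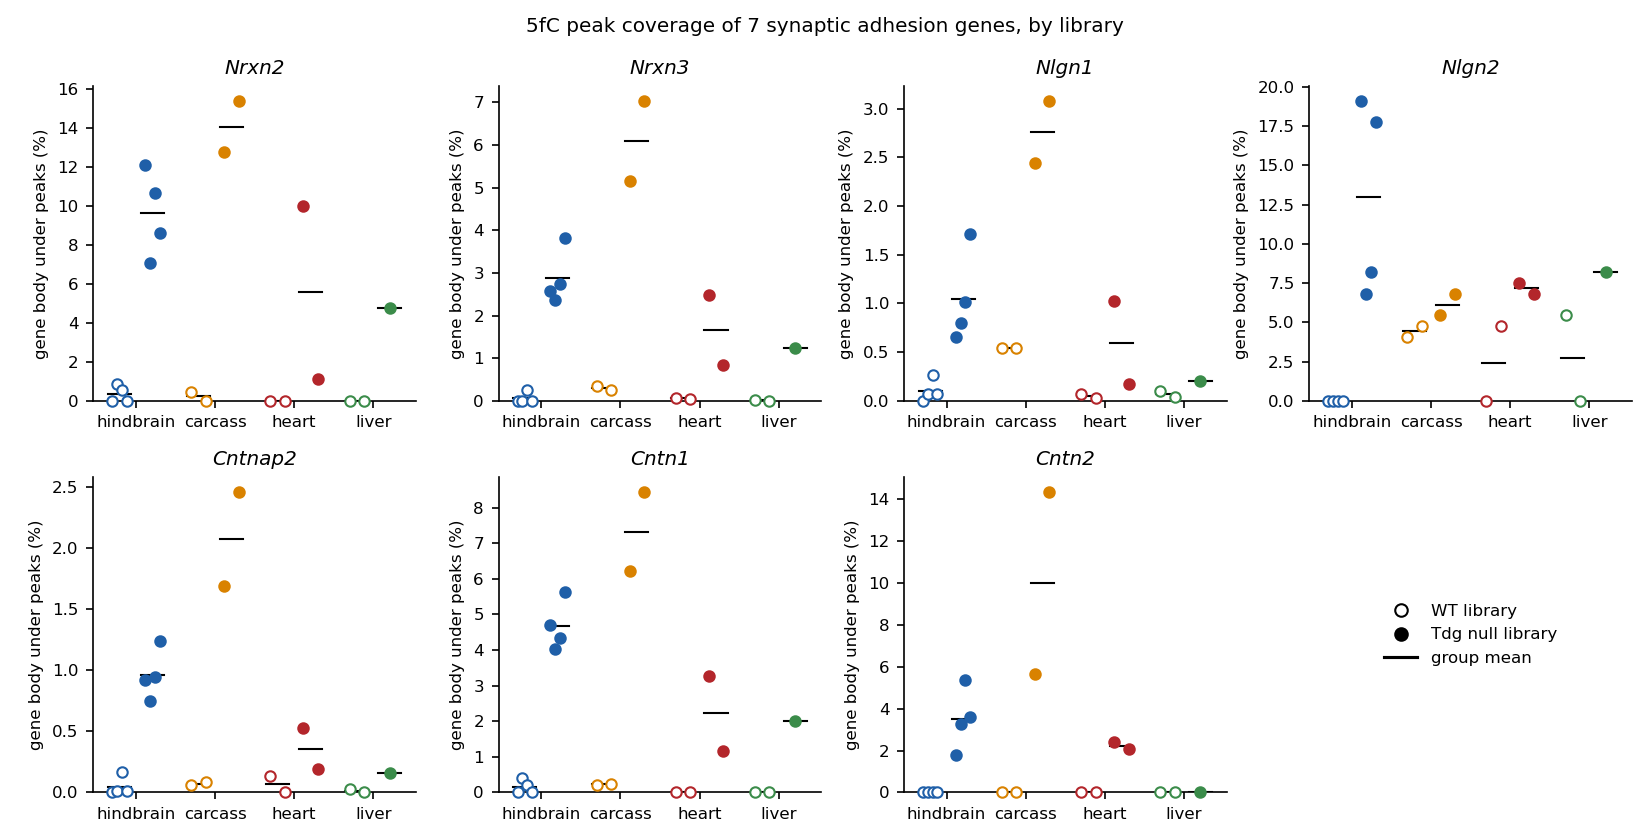
Percentage of each gene body under 5fC peaks (linear axis of its own for each gene) in each of the 19 libraries kept, by tissue, for *Tdg* null (filled) and WT (open) embryos, with bars at the group means. Every *Tdg* null hindbrain point lies above every WT hindbrain point in each of the 7 genes, as in 68.4% of all genes tested, whereas in *Nlgn2* the WT carcass points (4.09 and 4.77%) come close to the *Tdg* null ones (5.46 and 6.82%).

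*Neuroligins.* *Nlgn2* had the highest mean coverage of the 7 genes in *Tdg* null hindbrain. In *Tdg* null hindbrain 19.1, 6.82, 8.18 and 17.7% of the gene lay under 2 or 3 peaks, and no WT hindbrain library had a peak in it. The difference was 6.89 ± 0.36 (SE, n = 4 and 4), adjusted p = 6.21e-07. Outside the hindbrain WT libraries did hold *Nlgn2* peaks: 4.09 and 4.77% in WT carcass, 0 and 4.77% in WT heart and 5.46 and 0% in WT liver of litters e and f. The corresponding *Tdg* null values were 5.46 and 6.82% in carcass, 7.5 and 6.82% in heart, and 8.18% in liver.

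The difference between genotypes for *Nlgn2* was 0.46 ± 0.22 in carcass (SE, n = 2 and 2, adjusted p = 0.184) and 3.38 ± 2.25 in heart (SE, n = 2 and 2, adjusted p = 0.286), and neither passed the test. In carcass it turned to −2.30 (adjusted p = 0.010) when each value was divided by the coverage of the whole genome in its library. Without the WT heart of litter f, the heart difference was 6.18 with an adjusted p of 0.0207. The difference between genotypes was larger in hindbrain than in carcass by 6.43 ± 0.59 on the log2 scale (interaction by limma, SE, n = 8 and 4 libraries, adjusted p = 3.79e-05). *Nlgn2* was the 1 of 7 genes called in that interaction, where 9.46% of all genes tested were called in the same direction and 2.45% in the other. With peaks of at least 600 bp the interaction for *Nlgn2* was 3.26, adjusted p = 0.290. The WT hindbrain libraries held fewer peaks genome-wide than WT carcass, which had 42013 and 35175 peaks, and the part this played in the interaction was not tested.

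*Nlgn1* was sparsely covered. In *Tdg* null hindbrain 0.655, 0.798, 1.012 and 1.71% of the gene lay under peaks, and in WT hindbrain 0, 0.0712, 0.271 and 0.0712%. These groups did not overlap and differed by 2.57 ± 0.45 (SE, n = 4 and 4), adjusted p = 0.00116, but relative to genome coverage the difference was −0.39, adjusted p = 0.685. In carcass, *Tdg* null libraries had 2.44 and 3.08% and WT libraries 0.541% in both litters, a difference of 2.15 ± 0.17 (SE, n = 2 and 2), adjusted p = 0.00492, which became −0.45 relative to genome coverage. On the relative scale the *Nlgn1* estimate was thus below 0 in both tissues, and neither value was called. Heart values were 1.03 and 0.171% against 0.0712 and 0.0285%, and the difference of 1.90 ± 1.03 (SE, n = 2 and 2) had an adjusted p of 0.203. Liver values were 0.199% against 0.0997 and 0.0427%.

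*Contactins and CASPR2.* *Cntn1* was covered at 4.71, 4.02, 4.33 and 5.64% in the *Tdg* null hindbrains. WT hindbrain had 0, 0.413, 0.206 and 0%. The difference was 4.57 ± 0.56 (SE, n = 4 and 4), adjusted p = 0.000140. In carcass the values were 6.22 and 8.42% against 0.206 and 0.241%, with a difference of 4.51 ± 0.22 (SE, n = 2 and 2) and an adjusted p of 0.00201. Heart had 3.27 and 1.17% against 0 in both WT libraries, with a difference of 4.37 ± 0.65 (SE, n = 2 and 2) and an adjusted p of 0.0101. The *Tdg* null liver had 1.99% and both WT livers 0.

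*Cntn2* had no peak in any of the 10 WT libraries. In *Tdg* null hindbrain it held 1 to 3 peaks, over 1.79, 3.28, 5.37 and 3.58% of the gene. *Tdg* null carcass had 5.67 and 14.3%, *Tdg* null heart 2.39 and 2.09%, and *Tdg* null liver 0. The genotypes differed by 5.07 ± 0.31 in hindbrain (SE, n = 4 and 4, adjusted p = 1.63e-06), by 6.51 ± 0.57 in carcass (SE, n = 2 and 2, adjusted p = 0.00607) and by 4.54 ± 0.32 in heart (SE, n = 2 and 2, adjusted p = 0.00187).

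*Cntnap2*, the longest of the 7, was covered at about the level of *Nlgn1*. In hindbrain the values were 0.919, 0.750, 0.941 and 1.24% in *Tdg* null and 0, 0.0134, 0.165 and 0.00892% in WT libraries. The difference was 2.96 ± 0.35 (SE, n = 4 and 4), adjusted p = 0.000122. In carcass the values were 1.69 and 2.45% against 0.0580 and 0.0848%, a difference of 3.65 ± 0.25 (SE, n = 2 and 2), adjusted p = 0.00376. Heart had 0.526 and 0.192% against 0.134 and 0%, and the difference of 1.48 ± 0.98 (SE, n = 2 and 2) did not pass the test, adjusted p = 0.281. Liver had 0.156% against 0.031 and 0%.

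Counted together, coverage was higher in *Tdg* null than in WT hindbrain for 7 of 7 genes. This is to be read against 79.4% of the genes tested, and the median log2 difference was 4.57 for the 7 genes and 4.47 for all genes. In carcass 6 of 7 were higher (61.4% of all genes; medians 3.92 and 3.43), with *Nlgn2* the exception. In heart 4 of 7 were higher (72.0% of all genes; medians 3.38 and 5.63), namely *Nrxn2*, *Nrxn3*, *Cntn1* and *Cntn2*. The heart count fell to 0 without the WT library of litter e (65.3% of all genes) and was 1, for *Nlgn2* alone, without that of litter f (61.0% of all genes).

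Dividing by genome coverage lowered the median over all genes from 4.47 to 2.58 in hindbrain, from 5.63 to 2.97 in heart and from 3.43 to 1.25 in carcass. On that scale 55.4% of all genes were called higher and 0.806% lower in *Tdg* null hindbrain, 58.9% higher and 1.34% lower in heart, and 33.0% higher in carcass. The hindbrain difference was called for 3 of 7 genes, at 5.18 for *Nlgn2*, 3.44 for *Cntn2* and 2.57 for *Nrxn3*. In heart *Nrxn2* (2.88), *Cntn2* (2.37) and *Cntn1* (2.20) were called, whereas *Nrxn3*, *Nlgn1*, *Nlgn2* and *Cntnap2* had negative values, of which none was called. In carcass *Cntn2* (3.92), *Cntn1* (1.79), *Nrxn3* (1.21) and *Cntnap2* (1.2) were called higher and *Nlgn2* lower, where 5.79% of all genes were called lower.

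Over the 6 litters, with the tissues of litters e and f averaged first, all 7 genes were higher in the *Tdg* null embryo in 6 of 6 litters. The mean log2 difference ranged from 2.29 for *Nlgn1* to 5.22 for *Nrxn2*. A two-sided exact sign-flip permutation test gave each gene p = 0.031, the smallest that 6 litters allow, and an adjusted p of 0.0521. By this test 60.0% of 16899 genes had an unadjusted p below 0.05 and 0% an adjusted one. In *Nlgn1* the mean over litters turned to −0.58 when divided by genome coverage. The difference between genotypes was not called larger or smaller in hindbrain than in heart for any of the 7 genes (2.28% of all genes larger and 11.6% smaller).

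*Tissues of the Tdg null embryo.* Relative coverage, which is the percentage of a gene under peaks divided by the percentage of the genome under peaks in the same library, places the average of the genome at 1. Summed over the 5019710 bases of the 7 genes it was below 1 in every *Tdg* null library, at 0.548 to 0.719 in hindbrain, 0.647 and 0.632 in carcass, 0.204 and 0.141 in heart and 0.25 in liver. Single genes lay on both sides of the average. In hindbrain the order was *Nlgn2* (3.75 ± 1.54, SD, n = 4), *Nrxn2* (2.85 ± 0.446), *Cntn1* (1.40 ± 0.149), *Cntn2* (1.06 ± 0.435), *Nrxn3* (0.854 ± 0.144), *Nlgn1* (0.308 ± 0.117) and *Cntnap2* (0.285 ± 0.0359). Neighbours in this order overlapped between libraries, except *Nrxn2* above *Cntn1* and *Nrxn3* above *Nlgn1*.

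*Nrxn2* had a relative coverage of 2.35 to 3.37 in *Tdg* null hindbrain, 2.37 and 2.04 in carcass, 1.58 in liver, and 1.24 and 0.307 in heart. The hindbrain value exceeded the heart value by 1.99 ± 0.48 on the log2(relative coverage + 0.1) scale (limma, SE, n = 4 and 2, adjusted p = 0.0374). *Nrxn3* ran from 0.714 to 1.04 in hindbrain and was 0.957 and 0.931 in carcass, 0.411 in liver, and 0.307 and 0.233 in heart, with hindbrain 1.36 ± 0.29 above heart (adjusted p = 0.0254). For both neurexins hindbrain and carcass overlapped and heart was lowest. *Cntn1* lay at 1.23 to 1.54 in hindbrain and at 1.16 and 1.12 in carcass, a difference that was not called, then at 0.658 in liver and at 0.404 and 0.321 in heart. Hindbrain exceeded heart by 1.69 ± 0.23 for *Cntn1* (adjusted p = 0.00554) and by 1.27 ± 0.30 for *Cntnap2* (adjusted p = 0.0344), whose values were 0.256 to 0.337 in hindbrain, 0.319 ± 0.00783 in carcass (SD, n = 2), 0.0589 ± 0.00874 in heart (SD, n = 2) and 0.0515 in liver.

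The remaining 3 genes did not pass this test. *Nlgn1* averaged 0.430 ± 0.0316 in carcass, 0.308 ± 0.117 in hindbrain, 0.0869 ± 0.0564 in heart (SD, n = 2, 4 and 2) and 0.0658 in liver, and hindbrain lay 1.12 ± 0.42 above heart (adjusted p = 0.111). *Nlgn2* lay at 2.32 to 5.31 in hindbrain, 2.70 in liver, 1.40 ± 0.669 in heart (SD, n = 2) and 0.958 ± 0.0775 in carcass (SD, n = 2), with a difference of 1.35 ± 0.47 from heart (adjusted p = 0.0907). *Cntn2* was highest in carcass, at 1.47 ± 0.597 against 1.06 ± 0.435 in hindbrain, 0.434 ± 0.197 in heart (SD, n = 2, 4 and 2) and 0 in liver, and the hindbrain and carcass libraries overlapped. Its difference from heart was 1.07 ± 0.49, adjusted p = 0.165.

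Thus 4 of 7 genes were higher in *Tdg* null hindbrain than in *Tdg* null heart and none was lower, where 8.23% of all genes were higher and 15.2% lower. The median difference was 1.35 for the 7 genes and −0.30 for all genes. Without division by genome coverage none of the 7 passed (2.50% of all genes higher and 18.2% lower), and with 1 hindbrain library left out the count was 1 without litter O, Q or Z and 2 without litter A (4.59 to 7.23% of all genes higher). *Cntn1* was called in each of these. Against *Tdg* null carcass 0 of 7 genes were called (limma; 4.42% of all genes were higher in hindbrain and 2.08% lower). The nearest was *Nlgn2*, at 1.78 ± 0.39 (SE, n = 4 and 2), adjusted p = 0.0591, and it did pass with peaks counted per Mb or with flanks of 10 kb added to each gene.

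**Figure D2:**
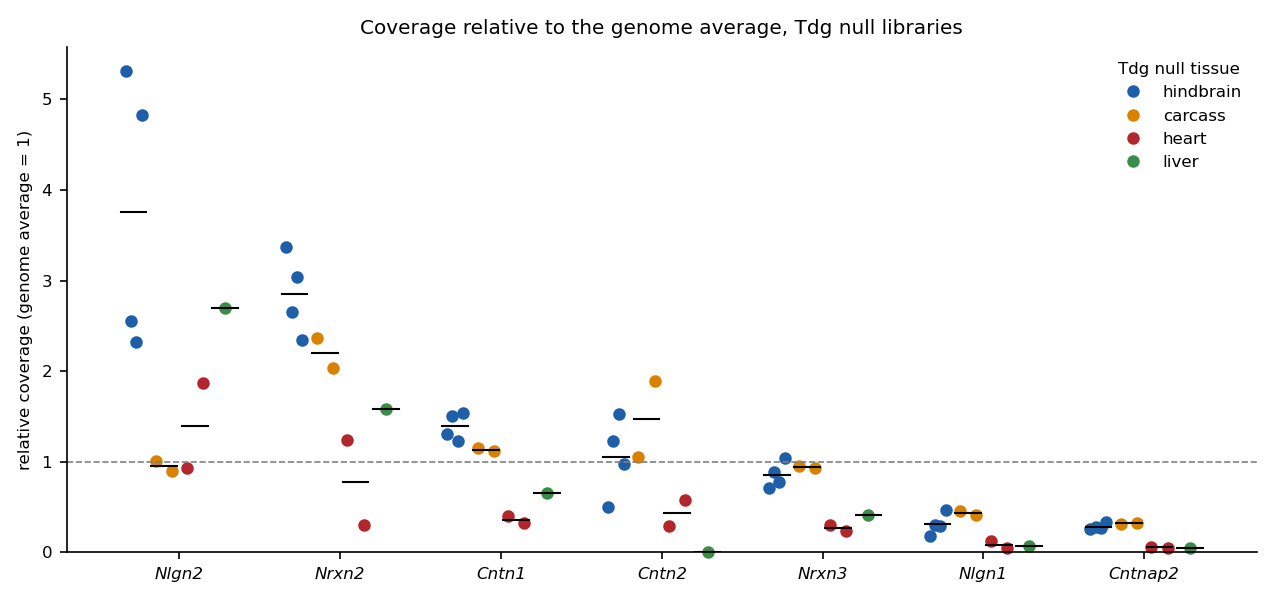
Relative coverage (percentage of the gene under peaks over percentage of the genome under peaks, linear axis) in the 9 *Tdg* null libraries kept, by gene and tissue, with bars at the group means and a dashed line at the genome average of 1. Heart points lie below the hindbrain points in 6 of 7 genes (18.1% of all genes tested), the exception being *Cntn2*, where 0.574 in a heart library exceeds 0.498 in a hindbrain library, and *Cntn2* in liver is at 0.

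*Genes of similar length.* Long genes hold more peaks, so the coverage of each gene was ranked among the 100 protein-coding genes nearest to it in length, as a description without a test. In *Tdg* null hindbrain *Nlgn2* ranked at the 97th percentile (83 to 100 in single libraries), with 13.0% of the gene covered against a median of 2.39% in its neighbours. *Nrxn2* ranked at the 88th (76 to 95), with 9.63% against 4.34%. *Cntn2* ranked at the 67th, *Nrxn3* at the 59th, *Cntn1* at the 51st, *Cntnap2* at the 23rd and *Nlgn1* at the 17th. The 3 genes richest in CpG ranked highest and the 2 poorest in CpG lowest. The order did not follow CpG content throughout: *Nrxn3*, with 5.39 CpG per kb, ranked above *Cntn1* with 7.75 and far above *Nlgn1* with 5.30. Whether CpG content bears on the rank was not tested.

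Ranks in *Tdg* null carcass were close for most genes, at 71 for *Nlgn2*, 71 for *Nrxn2*, 86 for *Cntn2*, 59 for *Nrxn3*, 43 for *Cntn1*, 25 for *Cntnap2* and 21 for *Nlgn1*. In *Tdg* null heart every rank was lower than in hindbrain, from 55 for *Nlgn2* and 47 for *Nrxn3* down to 13 for *Nlgn1*. *Nlgn2* also stood high among genes of its length in WT tissues other than hindbrain. By the group means it ranked at 97 in WT carcass (95 and 96 in single libraries), 96 in WT heart and 97 in WT liver, where the median neighbour was at 0. The heart and liver ranks rest on 1 library each, with single ranks of 98 where *Nlgn2* had a peak and of 48.5 and 49.5 where it was at 0. It ranked at 43.5 in WT hindbrain, where it was itself at 0.

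**Figure D3:**
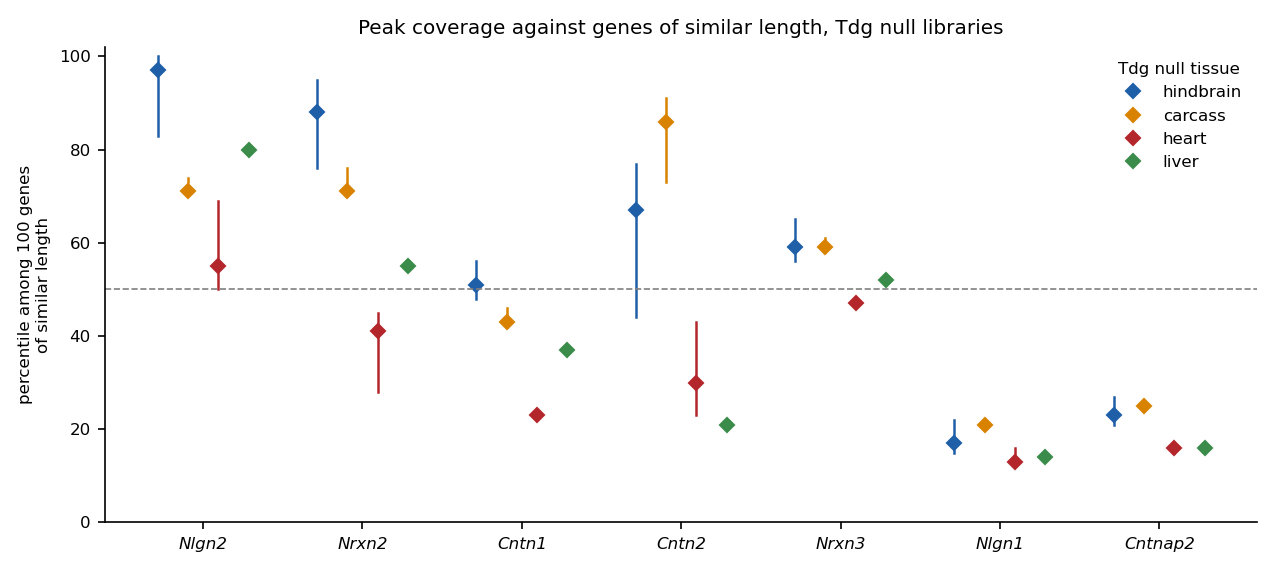
Percentile of each gene among the 100 protein-coding genes nearest to it in length, by the percentage of the gene body under peaks, for each *Tdg* null tissue (diamond, rank of the group mean; line, range of the ranks of single libraries). *Nlgn2* and *Nrxn2* stand highest in hindbrain (97 and 88) and *Nlgn1* lowest (17), and the heart diamonds lie below the hindbrain ones for all 7 genes.

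*Position within the genes.* Most covered bases were intronic, as most of these genes is intron, but in *Tdg* null hindbrain exons were covered more densely in most members. There 13.9% of exonic and 4.37% of intronic bases of *Cntn1* lay under peaks (means, n = 4), and exons exceeded introns in 4 of 4 libraries. The same held in 4 of 4 libraries for *Cntn2* (8.36 and 1.58%), *Nrxn3* (7.37 and 2.84%) and *Cntnap2* (5.48 and 0.947%), and in 3 of 4 for *Nlgn2* (18.0 and 9.66%). *Nrxn2* had 7.83% of exonic and 9.85% of intronic bases covered, with exons above introns in 1 of 4 libraries. No *Nlgn1* exon was under a peak in any *Tdg* null hindbrain, against 1.05% of its introns. The other tissues did not always go the same way. Over the 9 *Tdg* null libraries, exons exceeded introns in 8 for *Cntn1*, *Cntnap2* and *Nlgn2*, in 6 for *Nrxn3* and *Cntn2*, in 5 for *Nrxn2* and in 0 for *Nlgn1*. In *Nrxn3* the exons were below the introns in both hearts (2.08 against 2.48% and 0.150 against 0.855%) and in liver (0 against 1.26%), and no *Cntn2* exon was under a peak in *Tdg* null heart. Libraries share sites, so the counts of libraries are not independent. Of 90 stretches under peaks in all 4 *Tdg* null hindbrains, 7 touched an exon. The 1 *Cntn2* peak of the *Tdg* null hindbrain of litter A, 600 bp, was wholly exonic. Exons and introns were compared in the 7 genes only.

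Peaks lay in the CpG-richer parts of these genes. In *Tdg* null hindbrain the sequence under peaks held 12.8 CpG per kb in *Cntnap2* against 4.35 in the rest of the gene, 11.9 against 5.20 in *Nrxn3*, 11.7 against 5.23 in *Nlgn1*, 16.2 against 7.34 in *Cntn1* and 44.2 against 22.9 in *Nlgn2*. In these 5 genes the density was higher under peaks in 9 of 9 *Tdg* null libraries. *Cntn2* differed less, at 18.5 against 14.7, and *Nrxn2* not in this direction, at 17.8 against 18.5. The position of the peaks followed no single course from 5′ to 3′. In *Cntnap2* the mean coverage in *Tdg* null hindbrain went over 5 equal segments from 0.435% at the 5′ end through 0.441, 0.608 and 0.870 to 2.45% at the 3′ end, and in carcass from 0.669 to 5.59%. In *Nrxn2* the first of the 5 segments had the lowest value, 1.40%, and the other 4 ranged from 8.77 to 15.4%.

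Annotated starts of protein-coding transcripts were mostly free of peaks. Starts of transcripts annotated as protein-coding were read, with those within 1 kb of each other merged and starts of other transcripts left out, among them those at the 5′ end of *Nrxn3*. The 7 genes have 17 such starts, 12 of them within 1 kb of a CpG island, and 10 had no peak within 1 kb in any library, of which 8 were island starts. In all 4 *Tdg* null hindbrains, 3 starts had peak bases within 1 kb. The first of these starts in *Nrxn3*, 71.6 kb into the gene, had 47 to 147 such bases, the internal start of *Nlgn2* had 550 to 650, and the third start of *Cntn1*, 110 kb into the gene, had 1300 to 1500. The *Cntn1* start was also covered in 2 other *Tdg* null and 3 WT libraries, and that of *Nlgn2* in 5 and 4, respectively. No other start was covered in any WT library.

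**Figure D4:**
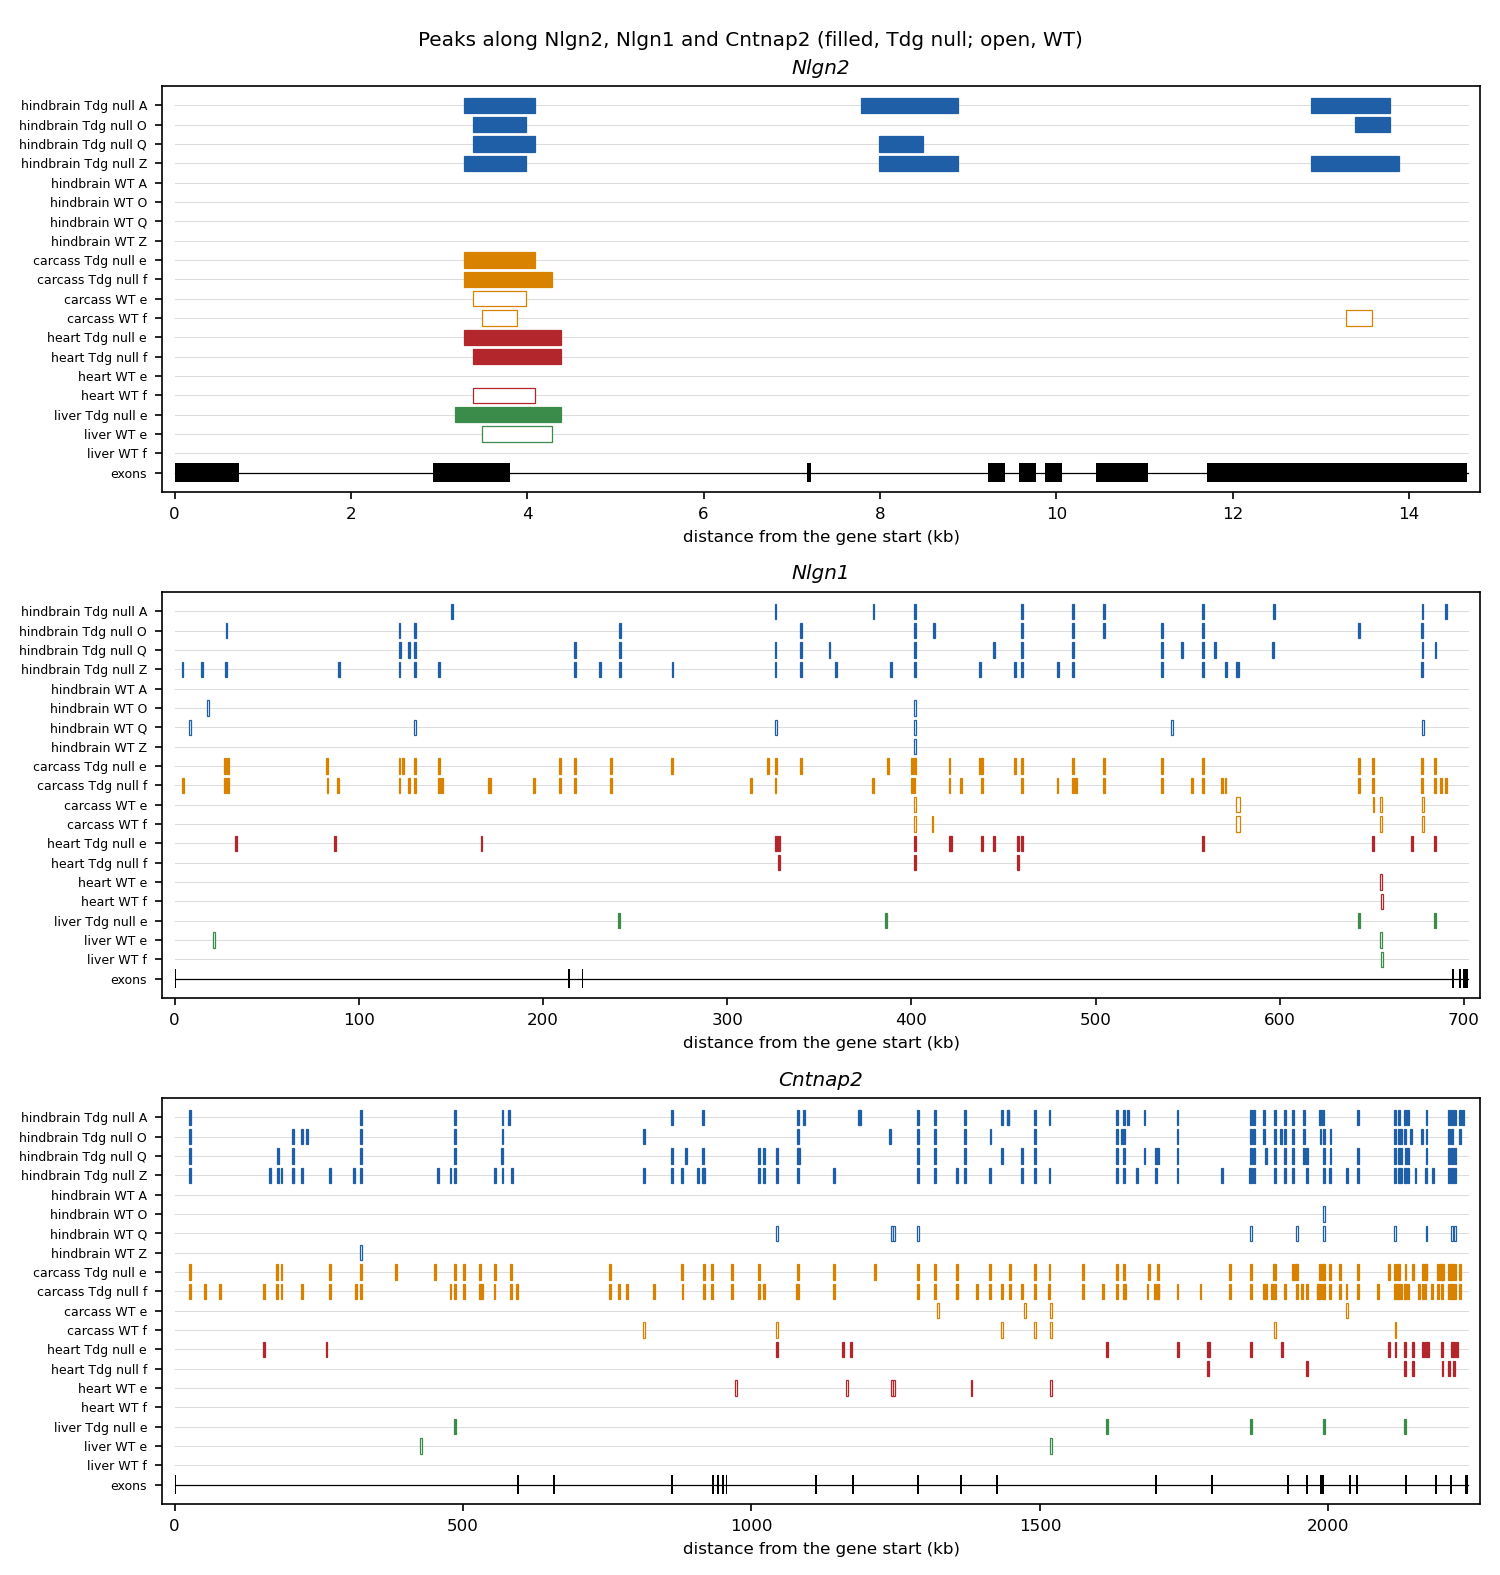
Position of 5fC peaks (filled, *Tdg* null; open, WT) along *Nlgn2*, *Nlgn1* and *Cntnap2*, in kb from the 5′ end of each gene on its own strand, with 1 row for each of the 19 libraries kept and exons at the foot, where very short features are drawn at a minimum width. The *Nlgn2* peaks around 3.69 kb line up in all 9 *Tdg* null and 4 WT libraries, the *Nlgn1* peaks near 655 kb appear in 6 WT libraries and no *Tdg* null library, and *Cntnap2* peaks crowd towards the 3′ end.

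*Recurrent sites.* In all 4 *Tdg* null hindbrains together, 90 stretches totalling 45.6 kb lay under peaks: 39 in *Nrxn3*, 22 in *Cntnap2*, 14 in *Cntn1*, 8 in *Nrxn2*, 5 in *Nlgn1* and 1 each in *Nlgn2* and *Cntn2*. Of these 63 overlapped no WT peak, 7 touched an exon and 7 touched a CpG island. WT peaks covered at most 0.939% of the genome in any library. Stretches of this and the kinds below were counted in the 7 genes only, so no share over all genes stands beside them. The 1 stretch in *Cntn2*, at chr1:134408001-134408600, lies wholly in the exon that holds the 3′ untranslated region, and was covered in 6 *Tdg* null libraries and no WT library. The longest, at chr15:91991101-91992400 in *Cntn1*, is the 1300 bp around the third start and holds 37 CpG.

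The 7 stretches covered in all 9 *Tdg* null libraries came to 3.1 kb, with 4 in *Nrxn3* and 1 each in *Nrxn2*, *Nlgn2* and *Cntn1*. The *Nlgn2* stretch, chr11:69647301-69647900, whose middle is printed above, holds 51 CpG in 600 bp, of which 417 bp are coding and 504 bp belong to a CpG island. It lies 3.69 kb from the 5′ end of the gene. It was also under a peak in 4 WT libraries, namely both carcasses, the heart of litter f and the liver of litter e. Other *Nlgn2* peaks were found in hindbrain: a peak from 7.99 to 8.49 kb or wider in the *Tdg* null libraries of litters A, Q and Z, and a peak from 13.4 to 13.8 kb or wider in those of litters A, O and Z. These 2 sites carried no peak in the *Tdg* null carcass, heart or liver libraries, and the WT carcass of litter f had a peak from 13.3 to 13.6 kb. The *Nrxn2* stretch printed above, in an intron 56.2 kb from the 5′ end, overlaps an island by 202 bp, and no WT library had a peak there.

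Another 12 stretches, 2.7 kb in all, were covered in all 4 *Tdg* null hindbrains and in none of the other 5 *Tdg* null libraries. How often such stretches occur in other genes was not counted. *Cntn1* held 5 of them, *Cntnap2* 3, *Nrxn3* 2 and *Nrxn2* and *Nlgn1* 1 each. Only 6 of the 12 are whole stretches: *Cntnap2* has 3, *Nrxn3* 2 and *Cntn1* 1. The other 6 are the margins, 100 to 200 bp wide, of 4 longer stretches that all 4 *Tdg* null hindbrains shared and that peaks of 1 or 2 other *Tdg* null libraries met in part. The longest, whose middle is the *Cntn1* sequence in the second set printed above, is chr15:91970401-91970900 with 14 CpG, intronic and 89.1 kb from the 5′ end. In *Nrxn3* 2 stretches showed the opposite, covered in the 5 other *Tdg* null libraries and in no *Tdg* null hindbrain, a kind that was added after the data had been seen. In hindbrain 29 of 43 WT peaks in the 7 genes (67.4%) met a peak of the *Tdg* null littermate, against 77.9% of WT peaks genome-wide. In the other tissues 36 of 82 did (43.9%), against 55.0%.

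*Sites with peaks in WT alone.* Of 131 CpG islands within the 7 genes or 1 kb of them (4 lay wholly outside the gene body, 1 of them under *Tdg* null peaks), 103 had no peak in any library, 24 had one in some *Tdg* null library, 7 in some WT library and 4 in WT but no *Tdg* null library. The most frequent of these 4 is an intronic island of *Nlgn1*, chr3:25377649-25378288, with a peak in all 6 WT heart, liver and carcass libraries, in no WT hindbrain and in 0 of 9 *Tdg* null libraries. An island in *Cntnap2*, chr6:46527130-46527604, had a peak in 4 WT libraries. The last 2, in *Nlgn1* and *Cntnap2*, had one in the WT liver of litter e only. Stretches under peaks in at least 5 of 10 WT libraries were 2 in number, both in *Nlgn1* introns. They are shown because they are the sites where WT peaks recurred most, one inside the island just named and one, covered in 5 WT and 8 *Tdg* null libraries, outside any island.
Nlgn1, stretch with an island, chr3:25377650-25377849 (− strand): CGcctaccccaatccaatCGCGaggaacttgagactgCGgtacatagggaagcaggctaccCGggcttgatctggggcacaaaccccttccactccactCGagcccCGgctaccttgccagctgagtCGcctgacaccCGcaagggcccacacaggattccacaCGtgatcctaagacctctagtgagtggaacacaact
Nlgn1, stretch without an island, chr3:25630950-25631149 (− strand): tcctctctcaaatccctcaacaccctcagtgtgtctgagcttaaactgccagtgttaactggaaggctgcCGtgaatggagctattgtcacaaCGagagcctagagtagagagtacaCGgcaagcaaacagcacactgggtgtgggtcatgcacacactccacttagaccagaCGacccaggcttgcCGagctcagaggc

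Both sequences recur elsewhere in the genome. Each position was read as a window of 24 bases and its copies were counted on both strands of the assembled chromosomes, a measure added after these sites had been seen. In the *Nlgn1* stretch within the island the median window had 1927 copies and 2.53% of windows were single-copy. In the other stretch the median window had 3 copies and 23.5% were single-copy. The 4 islands with WT peaks alone had medians of 1915, 3200, 801 and 3117 copies, and from 2.88 to 17.8% of their windows were single-copy, whereas the other 24 islands with a peak had at least 57.4%. In the 90 stretches shared by the *Tdg* null hindbrains the median share of single-copy windows was 100%, and it was below 50% in 4 of them. Whole gene bodies ran from 80.2% single-copy in *Cntnap2* to 96.9% in *Nlgn2*.

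Counted by peak, 30 of 126 WT peaks in the 7 genes (23.8%) and 43 of 1703 *Tdg* null peaks (2.52%) lay mostly in repeated sequence, with under 50% of windows single-copy. Library by library the share was 0 to 4.19% in the 9 *Tdg* null libraries and 16.1 to 100% in the 9 WT libraries that had a peak, the latter from as few as 1 peak. The share was higher among WT peaks without a peak of the *Tdg* null littermate, 21 of 60 (35%), than among those with one, 8 of 65 (12.3%), leaving out the 1 peak whose littermate library was excluded. Copies were counted for peaks in the 7 genes only, so no genome-wide share stands beside these values. How reads with several matches were treated bears on such peaks and was not tested.

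**Figure D5:**
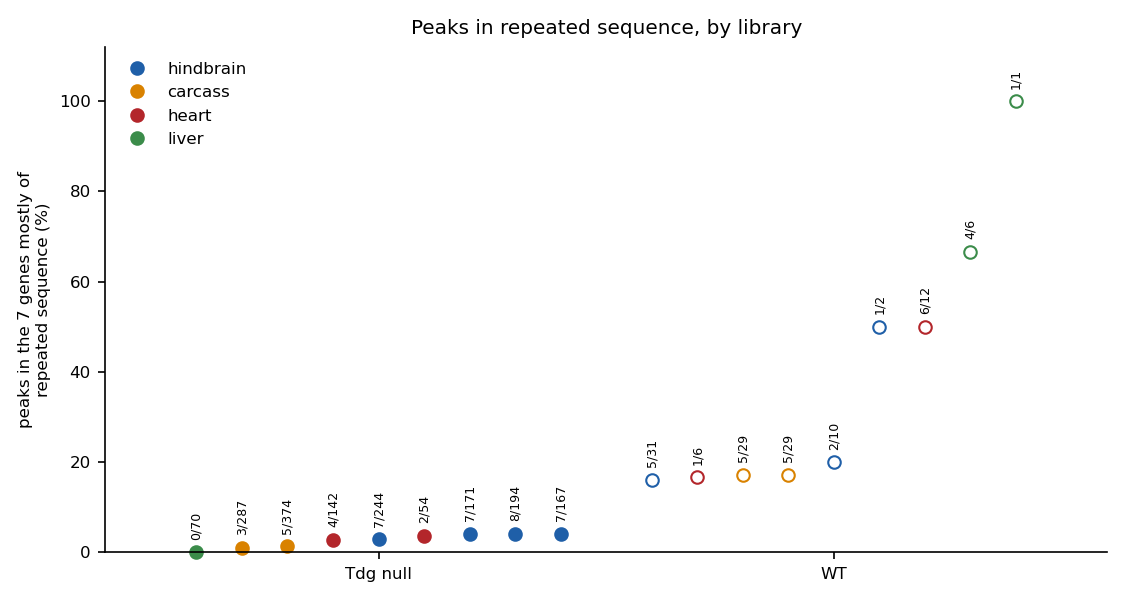
Percentage of the peaks in the 7 genes that lay mostly in repeated sequence (under 50% single-copy windows of 24 bases), with 1 point for each library that had a peak and the number of such peaks over all peaks above it. All 9 *Tdg* null libraries lie at or below 4.19% and all 9 WT libraries at or above 16.1%, among them the WT livers with 4 of 6 and 1 of 1. Peaks outside the 7 genes were not read for copies.

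*Partners of these genes.* Of 35 listed partners (other contactins and CASPR proteins, secreted and postsynaptic ligands of neurexins, scaffolds and related adhesion molecules), 33 matched 1 annotated gene of at least 5 kb. In hindbrain 29 of 31 tested were higher in *Tdg* null than in WT libraries (79.4% of all genes), and none was lower. The largest differences were 7.52 for *Cbln4*, a cerebellin that binds neurexins, 7.01 for *Dlg4*, which encodes the scaffold PSD-95, and 6.84 for *Cntnap1*, which encodes CASPR, each from 0 in all WT hindbrains. In carcass 26 of 30 were higher (61.4% of all genes), led by *Nfasc* (7.89), *Dlg4* (7.86) and *Cbln4* (7.84). In heart 14 of 32 were higher (72.0% of all genes), led by the neurexin ligand *Lrrtm2* (8.18), the scaffold *Shank3* (6.85) and *Cntnap1* (6.57). The median log2 differences of the partners were 4.22 in hindbrain, 3.05 in carcass and 3.17 in heart, each below the median of all genes (4.47, 3.43 and 5.63).

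Between *Tdg* null tissues, 11 of 32 partners were higher in hindbrain than in heart and 2 lower (*Dag1*, −1.05, and *L1cam*, −1.60, named after their values were seen), where 8.23% of all genes were higher and 15.2% lower, with a median difference of 0.90 against −0.30 for all genes. *Cbln4* (4.06), *Clstn3*, which encodes a calsyntenin (3.06), and the axonal adhesion gene *Nrcam* (2.52) differed most. Against carcass 3 of 31 were higher in hindbrain, namely *Cntnap1* (1.44), *Shank1* (1.26) and *Clstn1* (0.71), and *Ptprg* was lower (−0.57, named after its value was seen). Of all genes 4.42% were higher and 2.08% lower, and the medians were 0.06 for the partners and 0.18 for all genes. The difference between genotypes was called larger in hindbrain than in heart for *Nxph2* (3.33) and smaller for *L1cam* (−3.53), of 32 partners tested (2.28% of all genes larger and 11.6% smaller). It was called larger in hindbrain than in carcass for *Cntnap1* (4.25) and *Dag1* (3.41), and smaller for *Cask* (−1.56), of 31 tested (9.46% of all genes larger and 2.45% smaller).

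Among protein-coding genes of at least 50 kb more than 1 Mb away, the gene most like each member over the 9 *Tdg* null libraries was found by the correlation of log2(relative coverage + 0.1), given as a description, since the libraries share litters and tissues. It was *Nebl* for *Nrxn2* (Pearson r = 0.990), *Grm7* for *Nrxn3* (0.993), *9430031J16Rik* for *Nlgn1* (0.991), *Nrg3* for *Cntnap2* (0.996), *Vat1l* for *Cntn1* (0.992) and *Fam196b* for *Cntn2* (0.979). *Nlgn2*, which at 14.7 kb is shorter than every candidate, had the weakest best match, *Erap1* (0.859). Each match is the highest of 4644 to 4647 candidates over 9 libraries, and best matches of other genes were not computed. Among the 7 genes themselves *Nrxn3* and *Cntnap2* were the most alike (0.965), followed by *Nrxn3* and *Cntn1* (0.962), and *Nlgn2* was the least like the others, from −0.17 with *Cntn2* to 0.41 with *Cntn1*.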

How the data were processed

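5fC pull-down libraries of hindbrain, heart, liver and carcass from WT and *Tdg* null E11.5 embryos were compared over 7 genes. Trimmed reads were mapped by the authors to NCBIM37 (Bowtie2, default parameters), and each library was given its own peak call by MACS within SeqMonk (p cutoff 1e-05, fragment size 200 bp). Use of an input library, duplicate removal and the handling of reads with several matches are not given in the sources used here. The deposited values are peak positions in bases on a grid of 100 bp, read as 1-based and inclusive, with no counts or scores, so depth is unknown.

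Gene bodies came from the GENCODE annotation of NCBIM37. The percentage of each gene under peaks, or that percentage divided by the percentage of the ungapped genome under peaks in the library, was tested on log2(value + 0.1) with limma (lmFit, eBayes with trend) over 18996 genes of at least 5 kb. Genes with 1 value throughout could not be fitted. P-values were two-sided and adjusted by Benjamini-Hochberg over all genes tested, with a threshold of 0.05. Hindbrain had 4 embryos per genotype, carcass and heart 2, where the spread is poorly known. CpG islands were called on the sequence (at least 200 bp, GC at least 50%, observed over expected CpG above 0.6).

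Littermates pair the genotypes, by the litter that the labels give for each embryo. In hindbrain the correlation over genes of deviations from the group means was −0.029 to 0.043 for 4 same-litter pairs and −0.047 to 0.041 for 12 other pairs, and the main fits had no block. WT hindbrains A and Z held 1564 and 1563 peaks and were the most alike of the 6 WT hindbrain pairs (Jaccard index of covered bases 0.268, other pairs 0.0513 to 0.224), but were not identical and were kept as 2 samples. Members, partner lists and tests were chosen with earlier results of these data known. The genes named are the 7 members, the 3 partners with the largest called difference in each comparison, the 1 most alike gene of each member, and in each member the longest recurrent stretch of each kind, of which those shown as sequence are a part. The alternatives were other pseudocounts, peaks of at least 600 bp, peaks per Mb, flanks of 10 kb, scaling to genome coverage or none, litter as a block, other numbers of neighbours and each library left out. Python 3.11.15 with numpy 2.4.6, pandas 2.3.3 and matplotlib 3.10.9, and R 4.3.3 with limma 3.58.1, were used. Tables of a later assembly, with other coordinates, were not used here.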

Additional observations from a re-analysis of the deposited data

Results flagged for a closer look

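The percentage of *Nrxn3* under peaks in WT hindbrain was 0.254 in litter Q and 0 in the other 3 litters. With the others all at 0, any value above 0 passes Dixon's 95% limit for 4 samples, so the limit adds nothing to these values. The same library passed it for *Cntnap2*, at 0.165% against 0 to 0.0134% in the other 3 WT hindbrains. It held 21606 peaks in all, the most of the 4 WT hindbrains. Of 14 groups of 4 libraries looked at, 12 had any spread and these 2 passed this limit. Chance gives about 1 in 20 for values without ties, a rate that does not apply to groups in which several libraries are at 0.

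The difference between genotypes for *Nlgn2* was larger in hindbrain than in carcass by 6.43 on the log2 scale (limma interaction, adjusted p = 3.79e-05), with no *Nlgn2* peak in any of 4 WT hindbrains and a peak in both WT carcasses.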

How the results depend on the processing

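Of 728 values recomputed for single genes, 639 kept their direction and their side of the threshold, 43 kept the direction but no longer passed, 9 newly passed and 37 changed direction. Scaled to genome coverage, 3 of 7 genes were called in hindbrain, where *Nlgn1* became −0.39 (−0.58 over the 6 litters). On that scale heart values were −0.49 for *Nlgn2*, −0.62 for *Nrxn3*, −1.34 for *Nlgn1* and −1.07 for *Cntnap2*, and carcass values −2.30 for *Nlgn2* and −0.45 for *Nlgn1*. Counted as peaks per Mb, *Nlgn2* in carcass became −0.49. Heart called 1 gene with a pseudocount of 1 (68.2% of all genes) and 2 with peaks of at least 600 bp (68.9%). Between *Tdg* null hindbrain and heart 2 were called with peaks of at least 600 bp (6.61% of all genes higher) and 0 without scaling (2.50%). Against carcass 1 was called with peaks per Mb (2.88%) and 1 with 10 kb flanks (6.13%), while *Nrxn2* became −0.20 with peaks per Mb, *Cntn2* 0.057 with flanks, and *Cntn1* −0.63 and *Nrxn2* −0.57 without scaling. The rank among genes of similar length became 49.5 for *Nrxn3* among 200 neighbours, and 24 and 21.5 for *Nlgn1* among 50 and 200.

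Alternatives for the 2 interactions were chosen after the data had been seen. Against heart, *Cntn1* became −1.22 with a pseudocount of 0.01 and −0.066 when scaled, and *Nrxn2* became 0.73 with a pseudocount of 1 and 1.22 with peaks of at least 600 bp. Against carcass, *Cntnap2* became 0.34 with a pseudocount of 0.01. With a pseudocount of 1, *Nrxn3*, *Cntn1* and *Nlgn1* became −0.57, −0.45 and −0.41, and with peaks of at least 600 bp *Nrxn3* and *Cntn1* became −0.54 and −0.80. None of these values was called. With peaks of at least 600 bp the gene called against carcass was *Cntnap2* (−1.59, adjusted p = 0.0166) in place of *Nlgn2*. For the values that changed with a setting here, the cause was not tested.

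With each library left out in turn, the count of genes called was 7 throughout in hindbrain (70.2 to 79.8% of all genes higher), 0 to 4 in heart (61.0 to 80.9%), 5 to 6 in carcass (53.3 to 59.7%), 1 to 4 between *Tdg* null hindbrain and heart (4.59 to 13.4%) and 0 throughout against carcass (1.81 to 5.14%). It was 0 to 1 for the interaction with heart (1, *Nlgn2*, without the WT heart of litter e, where 2.87% of all genes were higher) and 1 to 2 for that with carcass (2, with *Cntn2*, without the *Tdg* null carcass of litter e, where 5.96% of all genes were lower and 9.58% higher). Interaction values with heart ranged from −0.50 to 0.91 for *Cntn1*, −1.59 to 1.47 for *Nrxn2* and −0.35 to 1.70 for *Nlgn1*, and with carcass from −0.26 to 0.52 for *Cntn1* and −2.07 to 0.46 for *Nrxn2*. With litter as a replicate block, *Nrxn2* in carcass had an adjusted p of 0.0650, and the block changed no other call of these genes. Depth is unknown, and 2 libraries per genotype limit heart and carcass.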
